A study of Mus musculus with 8 samples.

Results

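The homeobox genes of head, limb and skin appendage development, *Msx1*, *Msx2*, *Alx1*, *Alx4* and *Barx1*, were taken by name from the 21896 protein-coding genes of the mouse annotation. For each of these 5, every H2AK119ub peak that overlapped the gene span with 20 kb on either side was collected. H2AK119ub is histone H2A that carries ubiquitin on a C-terminal lysine. It was mapped by ChIP-seq, the sequencing of DNA pulled down with an antibody, in epidermal progenitors of mouse back skin at postnatal day 0, sorted as EpCAM positive, Sca1 positive and high for α6-integrin. The deposited lists covered Eed cKO cells (genotype Eed-/-, 2 libraries, 1 list) and Control cells (2 libraries, 1 list). The labels also hold 1 Ring1a-/- Ring1b-/- H2AK119ub library and 3 inputs, which were not analysed here as such. Strain, sex, the number of animals behind a library and the driver of the Eed deletion are not given in the labels, and peak positions cannot show the deletion itself.

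H2AK119ub is placed by Polycomb repressive complex 1, and Eed is a core subunit of Polycomb repressive complex 2, which methylates histone H3 on lysine 27. Both complexes sit at CpG-rich promoters of developmental regulators and keep them silent in lineages that do not use them. Msx1 and Msx2 are homeodomain repressors induced by BMP signals, known from tooth, skull, limb and hair follicle development. Alx1 and Alx4 are paired-like homeodomain factors of craniofacial and limb mesenchyme, and Barx1 is a homeodomain factor of molar tooth and stomach mesenchyme.

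The Eed cKO list held 2541 peaks over 16.6 Mb and the control list 4621 peaks over 29.0 Mb. A peak is a chromosome, a start and an end, with no score, so the measured quantities are presence, width and position. With 1 list per genotype there is no replicate error and no test, and read depth is unknown. A peak that is missing from a list, a weaker mark, fewer reads and a stricter threshold therefore cannot be told apart. Nor can fewer cells with the mark and less mark per cell be told apart in these bulk lists. Of 10 basal keratinocyte genes, 1 had an Eed cKO peak and 3 had a control peak in the same window, and of 10 dermal mesenchyme genes 5 had an Eed cKO peak and 7 a control peak. Over all protein-coding genes an Eed cKO peak lay in such a window in 14.3% and a control peak in 21.2%. The basal gene in both lists was *Krt15*, and *Krt5* and *Dst* were in control alone. The dermal genes in both lists were *Twist1*, *Col1a1*, *Twist2*, *Pdgfrb* and *Vim*, with *Pdgfra* and *Prrx1* in control alone. The part of other cell types in the lists was not tested, and peak lists of a repressive mark give no cell counts.

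All 5 genes carried a control peak, and 3 of them, *Msx1*, *Alx4* and *Barx1*, also carried an Eed cKO peak. *Msx2* and *Alx1* had control peaks and no Eed cKO peak. Over all protein-coding genes an Eed cKO peak lay in the same window in 14.3% and a control peak in 21.2%. Peaks of both lists were found at 11.7% of all genes, a control peak without an Eed cKO peak at 9.51%, and the reverse at 2.64%. Among the 4634 genes with a control peak, 55.0% also had an Eed cKO peak, so the 3 of 5 is close to the background. The summed peak width over the 5 genes was 61.7 kb in 3 Eed cKO peaks and 99.5 kb in 6 control peaks. The median per gene was 17.9 kb in Eed cKO and 20.95 kb in control. Over all genes with a control peak it was 2.52 kb in Eed cKO and 6.19 kb in control. With 5 genes each median is the value of a single gene, *Alx4* in Eed cKO and *Alx1* in control. *Alx1* itself had 0 kb in Eed cKO, so the medians do not give a change per gene.

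**Figure D1:**
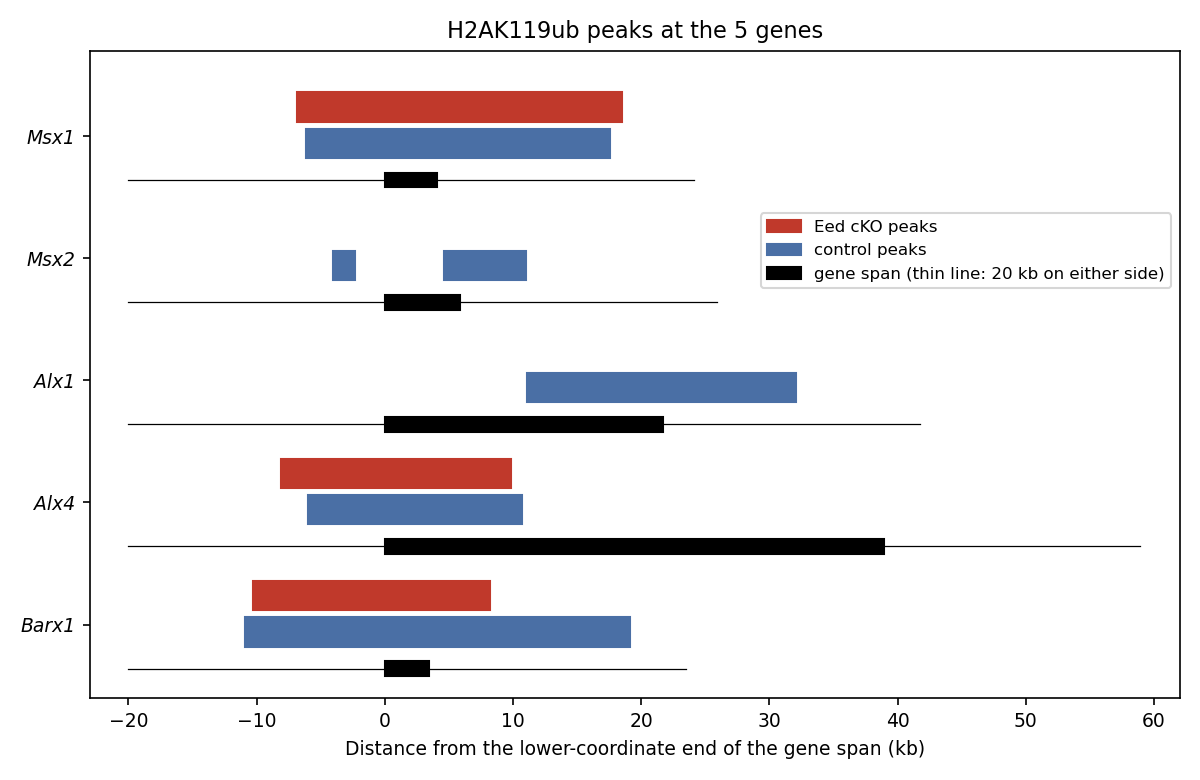
Position of every H2AK119ub peak in the windows of the 5 genes, in kb from the lower-coordinate end of each gene span; Eed cKO peaks are drawn in red above control peaks in blue, the gene span is black and the thin line adds 20 kb on either side. *Msx1*, *Alx4* and *Barx1* have 1 peak in each list, while *Msx2* has 2 and *Alx1* 1 control peak and neither has an Eed cKO peak.

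*Msx1*, a repressor needed for tooth and palate development, lies on chromosome 5 (37820491 to 37824585, mm10, minus strand). Its Eed cKO peak ran from 37813608 to 37838994, a width of 25.4 kb. The control peak ran from 37814348 to 37838049, a width of 23.7 kb. The control peak lay wholly inside the Eed cKO peak, which reached 740 bp further on the low side and 945 bp further on the high side. Both peaks covered the whole 4095 bp gene. Upstream of the gene start the domain extended 14.4 kb in Eed cKO and 13.5 kb in control, and downstream of it 10.98 kb in Eed cKO and 10.2 kb in control. No other protein-coding gene overlapped either peak. The *Msx1* peak was wider than 98.8% of Eed cKO peaks and 96.7% of control peaks.

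*Msx2*, the paralog that acts in skull growth and in hair shaft differentiation, lies on chromosome 13 (53466881 to 53472780, minus strand). It had no Eed cKO peak in the window. In control it had a pair of peaks, one of 6.42 kb (53471466 to 53477883) over the gene start and one of 1.72 kb (53462866 to 53464586) beyond the other end of the gene, 2294 bp from it. The peak at the start reached 5.10 kb upstream and 1.31 kb into the gene. Between the peaks lay 6.88 kb without a call, which held 4585 of the 5900 bp of the gene. The nearest Eed cKO peak, 3.25 kb wide, overlapped *Ror2*, a receptor for Wnt5a, 190.1 kb from *Msx2*. The smaller *Msx2* peak was not counted with a flank of 2 kb, with peaks narrower than the median of their list left out, or with only the 2541 widest control peaks kept, which left the 6418 bp peak at the start alone.

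The paralogs differed in size as well as in overlap. The summed width at *Msx1* was 25.4 kb in Eed cKO and 23.7 kb in control. At *Msx2* it was 0 kb in Eed cKO and 8.14 kb in control. The control total was larger than that of 91.3% of control-marked genes at *Msx1* and of 63.0% at *Msx2*. The other paralog, *Msx3*, a gene of the dorsal neural tube on chromosome 7, took a position between them. It had 8.57 kb in 1 Eed cKO peak and 21.0 kb in 2 control peaks. The 9.54 kb control peak over the *Msx3* gene and its start met no Eed cKO peak. The 11.5 kb control peak upstream of it was covered to 73.4% by the Eed cKO peak, which lay 6.88 kb from the gene. Of the 3 Msx genes, *Msx1* thus had its start inside an Eed cKO peak, and *Msx2* and *Msx3* did not, while all 3 starts lay inside a control peak.

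Among the 5 genes, the promoters of *Msx1*, *Msx2* and *Barx1* are shown because their starts lay inside control peaks. CpG dinucleotides are also the feature Polycomb complexes are known to favour. The start of the paralog *Msx3* lay inside a control peak too, but its sequence is not printed. Each sequence is the 250 bases before the gene start, from RefSeq on GRCm38.p6, read 5′ to 3′ on the strand of the gene, with every CpG in capitals. Of the 5 genes, 3 had an entry in the promoter table; *Alx1* and *Alx4* had none.
Msx1 promoter, chr5:37824586-37824835, minus strand: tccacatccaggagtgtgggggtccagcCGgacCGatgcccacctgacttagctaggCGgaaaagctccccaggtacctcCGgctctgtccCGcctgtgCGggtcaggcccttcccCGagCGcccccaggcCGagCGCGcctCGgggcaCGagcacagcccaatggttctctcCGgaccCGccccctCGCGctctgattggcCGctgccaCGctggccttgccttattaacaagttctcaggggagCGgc
Msx2 promoter, chr13:53472781-53473030, minus strand: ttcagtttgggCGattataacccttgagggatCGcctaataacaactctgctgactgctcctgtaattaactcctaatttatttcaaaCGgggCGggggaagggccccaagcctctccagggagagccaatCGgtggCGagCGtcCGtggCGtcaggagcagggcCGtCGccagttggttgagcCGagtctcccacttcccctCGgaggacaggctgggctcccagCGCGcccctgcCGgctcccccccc
Barx1 promoter, chr13:48662786-48663035, plus strand: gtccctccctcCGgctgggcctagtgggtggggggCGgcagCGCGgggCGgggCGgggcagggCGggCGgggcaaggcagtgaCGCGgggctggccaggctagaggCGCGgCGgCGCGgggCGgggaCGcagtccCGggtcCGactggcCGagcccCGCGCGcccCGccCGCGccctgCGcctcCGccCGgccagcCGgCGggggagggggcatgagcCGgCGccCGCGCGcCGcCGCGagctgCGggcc

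The *Msx1* promoter held 20 CpG dinucleotides and 68.0% G and C, and the *Msx2* promoter 16 CpG dinucleotides and 61.6% G and C. The *Barx1* promoter held 40 CpG dinucleotides and 85.6% G and C. Of 21262 promoter entries of protein-coding genes, 76.3% had fewer CpG dinucleotides than *Msx1*, 65.9% fewer than *Msx2* and 98.3% fewer than *Barx1*. The median was 14 CpG dinucleotides for genes with peaks in both lists, 13 for genes with a control peak alone and 8 for genes with no peak. All 3 promoters were therefore above the median of each class. The interquartile range was 7 to 23 for genes with peaks in both lists and 5 to 21 for a control peak alone. *Msx1* and *Msx2* lay inside both ranges, and only *Barx1* lay above them. The 3 motifs below, of 6 letters each, were searched on both strands, and a match is only a description. TAATTA, a core of homeodomain binding sites that reads the same on both strands, occurred in the *Msx2* promoter and in neither of the others, and 4.30% of all promoter entries hold it. GGCGCC, a GC-rich motif bound by BMP-activated SMAD proteins that itself holds a CpG, occurred in the *Barx1* promoter alone of the 3, and 12.3% of all entries hold it. TATAAA, the TATA box, occurred in none of the 3 and in 11.6% of all entries. The *Msx3* promoter held TATAAA and neither of the other motifs.

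**Figure D2:**
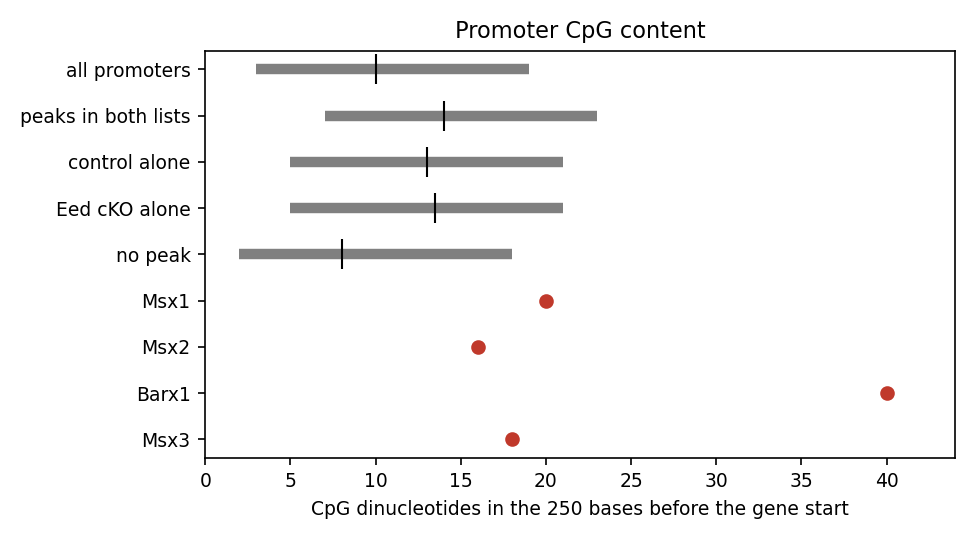
CpG dinucleotides in the 250 bases before the gene start; bars span the interquartile range of all promoter entries and of the classes by peak presence, with the median as a tick, and points are single genes. *Barx1* stands at 40, *Msx1* at 20, *Msx3* at 18 and *Msx2* at 16, against a median of 10 over all entries.

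*Alx4*, a factor of skull and limb patterning whose loss gives extra digits in mice, lies on chromosome 2 (93642434 to 93681341). Its Eed cKO peak ran from 93634363 to 93652244, a width of 17.9 kb. The control peak ran from 93636461 to 93653135, a width of 16.7 kb. The Eed cKO peak covered 94.7% of the control peak, and its position was shifted to lower coordinates. It began 2098 bp further out on the low side and ended 891 bp further in on the high side. Both peaks lay over the lower-coordinate end of the gene and covered 25.2% of the 38908 bp gene in Eed cKO and 27.5% in control. *Ext2*, 14.3 kb away and the only other protein-coding gene in the window, had no peak bases in either list.

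*Alx1*, needed for the frontonasal skeleton and closure of the neural tube in the head, lies on chromosome 10 (103007847 to 103029549). It had no Eed cKO peak, and the nearest one lay 3953 kb away. In control a single peak of 20.95 kb ran from 103018947 to 103039896. It covered the higher-coordinate end and 48.9% of the gene, and reached 10.3 kb beyond it. This peak also covered all 3547 bp of *Gm34298*, an annotated gene that overlaps the end of *Alx1*, and the 2 cannot be told apart from peak positions. *Lrriq1*, 14.8 kb away, had no peak bases in either list. The *Alx1* peak was thus wider than the *Alx4* control peak, 20.95 kb against 16.7 kb, yet it was the one with no Eed cKO counterpart.

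*Barx1* lies on chromosome 13 (48663036 to 48666507, plus strand). Its Eed cKO peak ran from 48652744 to 48671214, a width of 18.5 kb. The control peak ran from 48652155 to 48682160, a width of 30.0 kb, the widest of the 6 control peaks. The Eed cKO peak lay wholly inside the control peak and covered 61.6% of it. The edges were unequal: upstream the domain extended 10.3 kb from the gene start in Eed cKO and 10.9 kb in control, whereas downstream it extended 8.18 kb in Eed cKO and 19.1 kb in control. The shorter Eed cKO domain therefore lacked 10946 bp on the downstream side and 589 bp on the upstream side. The whole 3472 bp gene lay inside both peaks. Its paralog *Barx2*, known from hair follicle and muscle, had no Eed cKO peak and a 5.85 kb control peak 561 bp outside the gene span on chromosome 9.

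**Figure D3:**
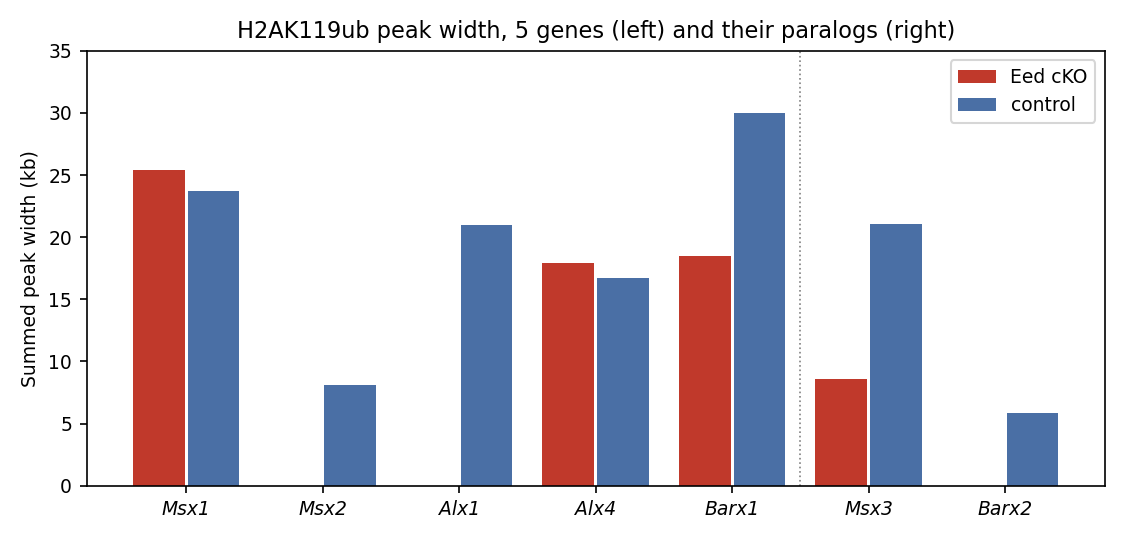
Summed H2AK119ub peak width in kb for the 5 genes, left of the dotted line, and for their paralogs, right of it; the left bar of each pair is Eed cKO and the right bar control, with 1 list per genotype and no error bars. *Msx1* (25.4 kb in Eed cKO and 23.7 kb in control) and *Alx4* (17.9 kb in Eed cKO and 16.7 kb in control) were wider in Eed cKO, and the other 5 genes were narrower or had no Eed cKO peak.

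The 3 shared domains were set beside the 1470 places in the whole lists with a single control peak overlapped by a single Eed cKO peak. The ratio of Eed cKO to control width was 1.07 at *Msx1*, 1.07 at *Alx4* and 0.616 at *Barx1*. Over the 1470 pairs the median ratio was 1.02, with the middle range from 0.737 to 1.41, and 17.6% of pairs had a lower ratio than *Barx1*. The shared bases made up 0.934 of the joint extent at *Msx1*, 0.841 at *Alx4* and 0.616 at *Barx1*, against a median of 0.650. *Msx1* exceeded 91.6% of the pairs in this measure and *Alx4* 77.9%. The pairs were of all widths and were not matched to these wide peaks. An edge shift of the same size takes a smaller part of a wider peak, so these ranks depend on width. The edges at *Msx1*, 740 and 945 bp apart, were near the median edge shift of 826 bp. At *Alx4* the low edges were 2098 bp and the high edges 891 bp apart. At *Barx1* the low edges were 589 bp and the high edges 10946 bp apart. The low edge at *Alx4* and the high edge at *Barx1* thus lay well beyond that median.

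**Figure D4:**
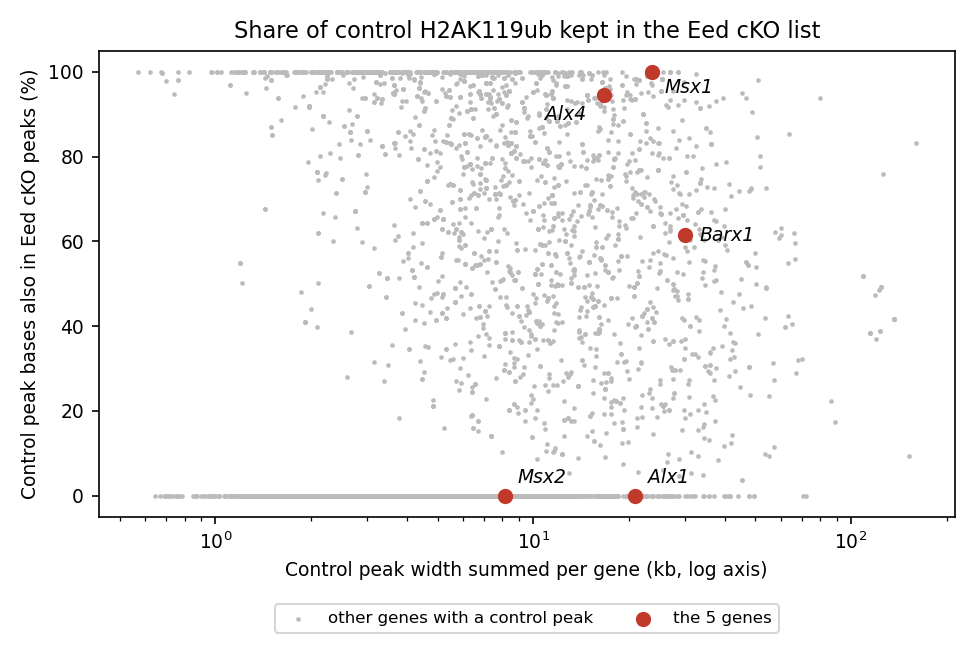
Share of control peak bases that also lay in Eed cKO peaks, in percent, against the summed control peak width per gene in kb on a log axis, for every gene with a control peak (grey) and the 5 genes (red). *Msx1* lies at 100%, *Alx4* at 94.7%, *Barx1* at 61.6%, and *Msx2* and *Alx1* at 0%.

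Wide control peaks met an Eed cKO peak more often than narrow ones over the whole list. An overlap of 1 bp counted, so a wider peak had more room to be met. How much of the rise with width comes from this rule was not tested. The 6 control peaks of these genes fall in several width classes. Of the 175 control peaks of 20 to 40 kb, 142 (81.1%) met an Eed cKO peak. *Msx1* and *Barx1* are among the 142, and *Alx1*, at 20.95 kb, is among the other 33. Of the 439 control peaks of 10 to 20 kb, which include that of *Alx4*, 59.2% met one. The shares were 45.0% for 5 to 10 kb, the class of the peak at the *Msx2* start, and 27.3% below 5 kb, the class of the smaller *Msx2* peak. Over all control peaks it was 37.9%, and 70.1% of Eed cKO peaks met a control peak. All 3 Eed cKO peaks at these genes did so.

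**Figure D5:**
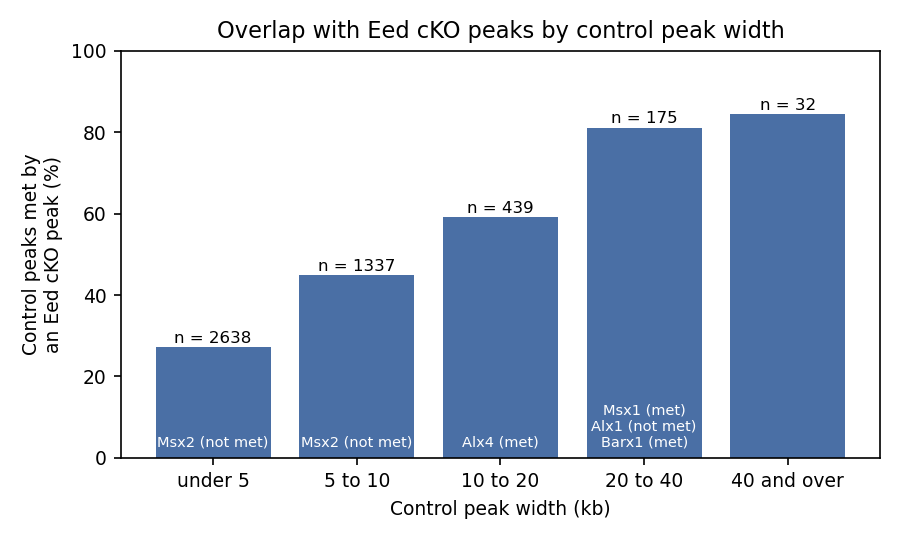
Percentage of control peaks overlapped by a peak of the Eed cKO list, in 5 classes of control peak width in kb, with the number of peaks above each bar and the peaks of the 5 genes written in their class. The share was 81.1% in the class of 20 to 40 kb, where *Alx1* is the one of 3 peaks that was not met.

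Outside the windows the surroundings differed too. Within 100 kb of the gene, *Msx2* had 2 further control peaks, of 1.15 and 1.91 kb, at 53.6 and 56.0 kb. *Msx1* had 1 further control peak of 5.23 kb at 67.1 kb, and *Barx1* 1 of 4.83 kb at 63.2 kb. None of these 4 peaks overlapped a protein-coding gene. *Alx1* and *Alx4* had no further control peak, and none of the 5 genes had a further Eed cKO peak within 100 kb. Of these 4 control peaks, 3 were narrower than 5 kb, a class in which 27.3% of all control peaks met an Eed cKO peak, and the fourth was in the class of 5 to 10 kb, with 45.0%. None of the 4 met an Eed cKO peak, and 4 peaks are too few to tell whether they differ from that background.

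Among 53 other homeobox genes, all had a control peak in the window and 46 had an Eed cKO peak, against 3 of 5 here and 55.0% of all genes with a control peak. Over all protein-coding genes 14.3% had an Eed cKO peak and 21.2% a control peak. This list was chosen with earlier results known and is a description. It holds neighbouring genes that share peaks, such as the Dlx pairs below, so its counts are of genes and not of separate peaks. The summed width had a median of 13.5 kb in Eed cKO and 27.4 kb in control. The medians of the 5 genes, 17.9 kb in Eed cKO (*Alx4*) and 20.95 kb in control (*Alx1*), are values of single genes. Beside them the median of the 53 was lower in Eed cKO and higher in control, although 46 of the 53 had an Eed cKO peak. The 7 without an Eed cKO peak included the eye, skeletal and roof plate factors *Vax2* (47.9 kb in control), *Vax1* (39.9 kb), *Nkx3-2* (28.6 kb) and *Lmx1a* (19.6 kb). The rest of the 7 were *Prrx1* (12.2 kb in control), *Prrx2* (8.43 kb) and *Barx2* (5.85 kb). Those in both lists with the most control bases were *Lhx2* (37.2 kb in Eed cKO and 66.6 kb in control), *Dlx1* (5.21 kb in Eed cKO and 53.4 kb in control), *Tlx1* (25.0 kb in Eed cKO and 50.1 kb in control) and *Barhl2* (28.7 kb in Eed cKO and 50.0 kb in control). All 6 Dlx genes, which act beside the Msx genes in jaw and tooth, had peaks of both lists. *Dlx5* and *Dlx6* each had 31.8 kb in Eed cKO, from shared peaks, and had 40.5 kb (*Dlx5*) and 44.4 kb (*Dlx6*) in control. *Dlx1* and *Dlx2* each had 5.21 kb in Eed cKO, from a shared peak, and had 53.4 kb (*Dlx1*) and 41.8 kb (*Dlx2*) in control. *Dlx3* and *Dlx4*, which share their peaks, went the other way, with 19.1 kb in Eed cKO and 3.26 kb in control.

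The genes most alike in their pair of covered kb within the window, by Euclidean distance over the 2 lists among the 53, were these. For *Msx1* they were *Lmx1b*, a dorsal limb factor, at 1.896 kb (26.9 kb in Eed cKO and 22.6 kb in control), and *Mnx1*, a motor neuron and pancreas factor, at 5.30 kb. For *Msx2* they were *Prrx2*, a limb mesenchyme factor, at 0.289 kb (0 kb in Eed cKO and 8.43 kb in control), and *Barx2* at 2.29 kb. For *Alx1* they were *Lmx1a* at 1.32 kb (0 kb in Eed cKO and 19.6 kb in control) and *Nkx3-2* at 7.43 kb. For *Alx4* they were *Lhx5* at 1.83 kb (16.4 kb in Eed cKO and 17.8 kb in control) and *Six2* at 4.86 kb. For *Barx1* they were *Lhx1* at 0.866 kb (17.6 kb in Eed cKO and 30.0 kb in control) and *Nkx2-5*, a heart factor, at 1.13 kb.

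The BMP pathway induces Msx genes in many tissues. Of its 24 ligands, receptors, SMADs, antagonists and Id genes listed, 6 had an Eed cKO peak and 7 a control peak. *Bmp4*, the main ligand upstream of Msx genes in tooth and skin, had 8.37 kb in Eed cKO and 13.9 kb in control. The inhibitory SMAD gene *Smad6* had 8.48 kb in Eed cKO and 23.8 kb in control, and the antagonist gene *Chrd* 4.46 kb in Eed cKO and 8.75 kb in control. *Smad5*, a signal transducer, had 10.9 kb in Eed cKO and 6.46 kb in control. The ligand gene *Bmp6* (8.91 kb) and the antagonist gene *Nog* (4.35 kb) were marked in control alone, and *Id3*, a BMP target, in Eed cKO alone (9.33 kb). None of the 5 receptor genes *Bmpr1a*, *Bmpr1b*, *Bmpr2*, *Acvr1* and *Acvr2a* had a peak in either list. Of 17 genes that act with Msx genes in appendages, 11 had an Eed cKO peak and 12 a control peak. *Hoxc13*, a hair factor, had 19.4 kb in Eed cKO and 115.1 kb in control, *Tbx3* 18.6 kb in Eed cKO and 38.8 kb in control, *Pax9*, a partner of Msx1 in tooth development, 12.2 kb in Eed cKO and 35.9 kb in control, and *Tbx2* 23.6 kb in Eed cKO and 27.4 kb in control. Some went the other way. *Wnt10a*, a ligand of tooth and hair placodes, had 37.6 kb in Eed cKO and 13.995 kb in control. *Foxn1*, a hair keratinocyte factor, had 18.6 kb in Eed cKO and 4.92 kb in control. *Lef1*, a Wnt effector, had 4.35 kb in Eed cKO and 3.31 kb in control, and *Fgf8* had 16.5 kb in each. *Foxi3*, an ectodermal placode factor, had 7.37 kb in control alone. A window of 20 kb can take in a peak that belongs to a neighbour of a listed gene. Whole peaks were summed, so the 115.1 kb at *Hoxc13* is the full width of a single control peak, which need not lie within the window. These counts stand beside the 14.3% of all genes with an Eed cKO peak and the 21.2% with a control peak.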

How the data were processed

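The data were 2 lists of H2AK119ub ChIP-seq peaks, 1 per genotype, each with chromosome, start and end in bp and no score; such positions have no other unit, and the authors deposited them on mm10. The submitters' processing notes name Bowtie2 2.3.3.1 and SAMtools 1.9. How peaks were called, at which threshold, whether inputs were used and how the 2 libraries were joined is not given in the sources used here. Starts were taken as counted from 0, so printed positions add 1.

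Genes came from RefSeq on GRCm38.p6 (mm10), without exons. A peak belonged to a gene when it overlapped the span with 20 kb on either side by at least 1 bp, and whole peaks were summed. Strand came from the promoter table. Genes named beyond the 5 members followed a rule: paralogs, neighbours under a peak, the nearest genes by covered kb, and up to 4 genes per list and class; *Id3*, *Dlx3*, *Dlx4*, *Wnt10a*, *Foxn1*, *Lef1*, *Fgf8*, the 5 receptor genes, *Ror2*, *Ext2*, *Lrriq1* and others outside it were chosen after their values were seen. Not every gene that the rule names is reported here. The members and lists were chosen with earlier results of these data known. Overlap functions were tested on simulated data. Python 3.11.15, numpy 2.4.6, pandas 2.3.3 and matplotlib 3.10.9 were used.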

Additional observations from a re-analysis of the deposited data

How the results depend on the processing

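The 19 values recomputed were members with a peak, overlapped peaks, and per member the peak bases and the share covered. Under the 8 alternatives that applied to them, 131 values in all, only the control bases at *Msx2* changed, from 8139 to 6418 bp. That change is within the limit of 1.5 times set for counts and bases. The shares did not change, so the 95% exact binomial interval set for them decided nothing, and it treats neighbouring bases as independent. All peaks but the smaller *Msx2* peak overlap their gene and are wider than the median of their list. Most settings could therefore hardly change these values, and their agreement is no test. Clipping was run for the per-member values alone and the 50% rule for the counts of overlapped peaks alone. These were flanks of 2, 10 and 50 kb, peaks at least as wide as the median of their list, a control list trimmed to its 2541 widest peaks, merging within 1000 bp, clipping to the window, and 50% of the peak covered as the overlap rule. No paired analysis was possible because each genotype has 1 list for its 2 libraries, so no library could be left out. Without scores or depth, a peak just under the calling threshold in either list cannot be seen.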
